A study of Homo sapiens with 12 samples.

Results

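The genes described here make sterols and fatty acids, or control that synthesis. They are a list of 33 genes known as targets or components of the SREBP pathway, found by name among the 38478 genes in the deposited table. The list was drawn up with earlier results of these data known, so the share of its members that passed a test is a description and not independent evidence. They comprise 18 enzymes of the sterol branch, from ACAT2 to DHCR7, 1 enzyme of an isoprenoid side branch (GGPS1), 6 regulators and carriers (INSIG1, INSIG2, SREBF1, SREBF2, SCAP and STARD4) and 8 enzymes of the fatty acid branch (FASN, SCD, ACACA, ACLY, ACSS2, ELOVL6, FADS1 and FADS2). They were measured by RNA sequencing in the multiple myeloma line OPM-1, of human origin, after 48 h in 1 of 4 conditions with 3 samples each. The cells received DMSO, the solvent, or 0.1 µM lenalidomide (LEN), or 1 µM AI-10-104, or both drugs (LEN+AI-10-104). LEN is a drug that directs the ubiquitin ligase receptor cereblon to the transcription factors IKZF1 and IKZF3, and AI-10-104 (RUNXi in the labels) is an inhibitor of RUNX transcription factors. The methods of the study call the 3 samples biological replicates, and all come from the same cell line.

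SREBP-1 and SREBP-2, encoded by SREBF1 and SREBF2, are transcription factors made as membrane proteins of the endoplasmic reticulum. When membrane sterol is low, SCAP escorts them to the Golgi, where proteases release the active part. When sterol is high, INSIG1 and INSIG2 hold SCAP back. INSIG1 is itself a target of the released factor, and SREBP-2 is known mainly for the sterol enzymes and SREBP-1 for the fatty acid enzymes. Plasma cells, from which myeloma arises, carry a large endoplasmic reticulum for antibody secretion, whose membranes need both kinds of lipid.

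The sequences just upstream of 4 of these genes were searched for the sterol regulatory element, through which SREBP acts, and for the box of its usual partner NF-Y. INSIG1, STARD4 and HMGCS1 are shown because they rose with AI-10-104, and SCD because it is the fatty acid enzyme that passed the adjusted p with AI-10-104 and in the combination against AI-10-104. They were taken from RefSeq promoter windows (GRCh38.p14), 250 bases before to 50 bases after a start, and each is the stretch before the start that lies in no GENCODE exon. Capitals mark CACNCCAC, a form of the sterol regulatory element, and CCAAT, the box bound by NF-Y, on either strand, and no marked pair of the 2 motifs overlaps.
INSIG1, chr7:155297628-155297775, + strand: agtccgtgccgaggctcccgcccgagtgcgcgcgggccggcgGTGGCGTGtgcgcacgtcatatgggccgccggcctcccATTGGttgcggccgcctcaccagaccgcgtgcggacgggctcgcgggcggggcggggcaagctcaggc
STARD4, chr5:111512591-111512785, - strand: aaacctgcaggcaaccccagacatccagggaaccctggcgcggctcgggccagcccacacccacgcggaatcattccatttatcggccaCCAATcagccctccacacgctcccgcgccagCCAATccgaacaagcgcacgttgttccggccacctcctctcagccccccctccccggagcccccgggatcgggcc
HMGCS1, chr5:43313513-43313662, - strand: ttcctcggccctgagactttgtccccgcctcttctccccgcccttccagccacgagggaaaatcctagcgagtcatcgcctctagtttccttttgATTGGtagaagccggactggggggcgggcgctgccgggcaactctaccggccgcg
SCD, chr10:100346983-100347232, + strand: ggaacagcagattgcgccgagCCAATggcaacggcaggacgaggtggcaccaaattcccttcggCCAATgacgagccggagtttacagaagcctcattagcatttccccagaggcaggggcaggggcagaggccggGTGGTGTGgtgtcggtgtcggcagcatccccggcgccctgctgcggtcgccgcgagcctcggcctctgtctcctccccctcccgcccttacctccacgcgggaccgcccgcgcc
INSIG1 and SCD each had 1 CACNCCAC match in the stretch shown, while STARD4 and HMGCS1 had CCAAT only, which says only that these letters are not in these windows. HMGCS1 has a second RefSeq window, not shown, whose stretch outside exons holds neither motif. RefSeq windows were matched for 29 of the 33 genes, 42 windows in all. CACNCCAC was in 7 of the 42 windows (16.7%), those of IDI1, SC5D, INSIG1, SREBF2, SCD and ACACA, and in 5.87% of all 35116 windows of the same length. CCAAT was in 26 of the 42 (61.9%) against 34.6% of all windows, and the GC box GGGCGG, bound by SP1, in 37 (88.1%) against 45.0%. These are shares of windows, and windows of the same gene can overlap, as do the 2 of SC5D, which hold the same CACNCCAC match. By gene, CACNCCAC was found for 6 of the 29, CCAAT for 22 and the GC box for 28. A match is a description of the sequence and was not tested as a binding site.

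Values are RPKM, reads per kilobase of gene length and 1000000 reads on genes. Samples held 16352548 to 31386210 reads on genes, with the deepest condition in DMSO (median 30219883) and the shallowest in the combination (median 19417027). Of the 33 genes, 31 had a mean of at least 0.5 RPKM and were tested. ACACA, the carboxylase that commits acetyl-CoA to fatty acids, was listed at 0.0181 to 0.0512 RPKM (8 to 30 reads), with a deposited length of 22794 bases against 13022 exon bases in GENCODE, the highest such ratio of the 33 genes at 1.75. FADS2, a fatty acid desaturase, had 1 to 14 reads. The 8 plasma cell markers examined were all present, at 17.9 to 654 RPKM. Of 12 markers of T cells, myeloid cells, fibroblasts, epithelium, endothelium and red cells, 11 had a mean under 0.5 RPKM and 6 had no read in any sample, while the haemoglobin gene HBB, a red cell marker, lay between 18.2 and 22.9 RPKM in every condition. The 12 summed to 20.53 to 20.63 RPKM in DMSO, 20.0 to 21.5 in LEN, 18.7 to 20.2 with AI-10-104 and 19.0 to 23.6 in the combination, and to 0.248 to 0.878 without HBB, and the 1 tested, HBB, was not called in any comparison. In a bulk sample fewer cells that express a gene and less of its RNA per cell cannot be told apart. Of the 8 plasma cell markers 1 was called with AI-10-104 against DMSO, where 0.685% of all genes tested were called higher. This was SLAMF7, a surface receptor, which rose with AI-10-104 by 0.69 on the log2 scale (adjusted p = 0.00011, limma). SLAMF7 was lower in the combination than with AI-10-104 by 0.52 (adjusted p = 0.0011, limma). SLAMF7 and XBP1, 2 of the 8 markers, passed the adjusted p with AI-10-104, where 2.09% of all genes were higher. When AI-10-104 was averaged over LEN, 4 of 8 (with TNFRSF17 and MZB1) did so, where 5.35% of all genes were higher. The shares of these markers are like those of the synthesis genes given below. The part of these markers in the results below was not tested.

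Differences are log2 fold changes of RPKM + 0.1, tested with limma over the 11241 genes whose mean reached 0.5 RPKM, with Benjamini-Hochberg adjustment over all of them. A gene was called when its adjusted p was at most 0.05 and its log2 fold change at least 0.32 in size. Because changes in these genes were small, the adjusted p alone is given as a second rule, always beside the share of all genes that met it.

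With AI-10-104, INSIG1 and several sterol synthesis genes rose, while no fatty acid enzyme other than SCD passed the test. Against DMSO, 5 of the 31 tested genes were called higher and 0 lower, namely INSIG1, STARD4, HMGCS1, IDI1 and MVK, where 0.685% of all genes tested were called higher. By the adjusted p alone 8 of the 31 were higher (25.8%), with ACAT2, FDFT1 and SCD added, against 2.09% of all genes. This number was 4 without DMSO replicate 1 and 3 without DMSO replicate 2, where 0.89% and 0.863% of all genes were higher. It was 5 and 4 without AI-10-104 replicates 1 and 3 (0.721% and 0.685% of all genes). It was 4 with genes of any value above 0 (0.535%) or with only these conditions fitted (0.614%). By voom, limma's method for read numbers, it was up to 12 (4.08%). ACAT2, MVK and INSIG1 passed under all 21 alternatives tried. The sum of reads on the 33 genes was 5318 to 5437 per 1000000 in DMSO and 4969 to 5304 in LEN, but 5869 to 6144 with AI-10-104 and 5681 to 5813 with both drugs. It was higher in each sample with AI-10-104 than in any without. Genes with many reads weigh most in this sum, such as SCD (13741 to 29341 reads per sample) and INSIG1 (6973 to 16554), while STARD4 had 103 to 211. The part of each gene in the difference was not computed. The heat map of the 31 genes by sample shows the rise as a block of rows with breaks, among them PMVK, MVD, EBP, INSIG2, SREBF2, SCAP, FASN and ACLY. NSDHL and LSS also lay under the DMSO mean in AI-10-104 replicate 1.

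**Figure D1:**
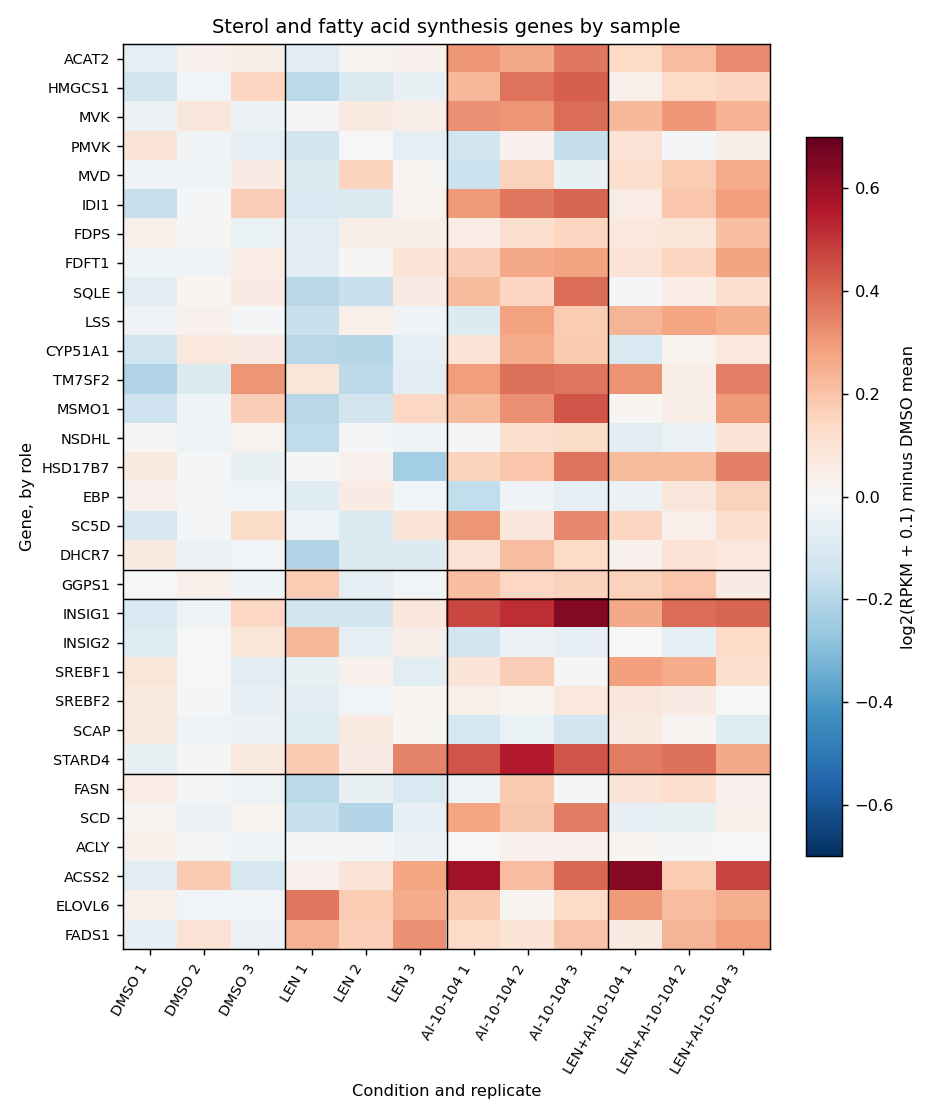
Level of each of the 31 tested genes (rows, ordered by role, with lines between the sterol branch, GGPS1, the regulators and the fatty acid branch) in each of the 12 samples (columns, 3 per condition), as log2(RPKM + 0.1) minus the mean of the DMSO samples. INSIG1, STARD4, HMGCS1, IDI1 and MVK are red in all 3 AI-10-104 samples, while PMVK, EBP and ACLY show no such rise.

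INSIG1, the sterol sensor that retains SCAP, had the largest log2 fold change of the 31 genes with AI-10-104. Its level was 115, 121 and 137 RPKM in DMSO, 114, 114 and 132 in LEN, 172, 178 and 194 with AI-10-104, and 149.5, 163 and 165 in the combination. The 6 samples with AI-10-104 lay above the 6 without, and the AI-10-104 samples above those of the combination. INSIG1 rose with AI-10-104 by 0.54 on the log2 scale (standard error 0.08, adjusted p = 0.0020, limma), a fold of 1.46. It was the only one of the 33 genes called in the combination against DMSO, at 0.35 (adjusted p = 0.015), where 2.3% of all genes were called higher. It was also called in the combination against LEN, at 0.41 (adjusted p = 0.011). The call against DMSO with AI-10-104 was kept with each sample left out in turn, at 0.49 to 0.61. The call of the combination against DMSO was lost without DMSO replicate 1 or 2 or without replicate 2 or 3 of the combination (0.30 to 0.43 over the samples left out), and that against LEN without LEN replicate 1 (0.38 to 0.48).

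STARD4, a carrier that moves sterol between membranes, was at a low level. It was 0.806, 0.831 and 0.884 RPKM in DMSO, 0.968, 0.877 and 1.10 in LEN, 1.17, 1.28 and 1.18 with AI-10-104, and 1.11, 1.13 and 1.03 in the combination, from 103 to 211 reads per sample. The AI-10-104 samples lay above all others, and the LEN and combination samples overlapped. STARD4 rose with AI-10-104 by 0.48 (standard error 0.10, adjusted p = 0.022, limma), a call that was lost without DMSO replicate 1 or 2 or AI-10-104 replicate 1 or 3, at 0.44 to 0.51 over the samples left out. Its exons share 124 bases with STARD4-AS1 on the opposite strand. The methods of the study name a directional library kit, while the strand setting used in counting is not given in the sources used here.

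The other regulators moved less. SREBF1 was 57.9 to 64.9 RPKM in DMSO, 57.9 to 62.5 in LEN, 61.6 to 68.9 with AI-10-104 and 66.2 to 74.8 in the combination, so only the combination lay above both conditions without AI-10-104. Its difference was 0.22 in the combination against DMSO (adjusted p = 0.039, limma) and 0.25 against LEN (adjusted p = 0.031), under the fold threshold, and 0.09 with AI-10-104 alone (adjusted p = 0.40). SREBF1 shares 556 exon bases with RAI1 on the opposite strand. SREBF2, at 69.2 to 77.2 RPKM in all samples, differed by 0.04 with AI-10-104 (95% interval -0.04 to 0.13). SCAP differed by -0.10 (95% interval -0.21 to 0.01) and INSIG2 by -0.08 (-0.25 to 0.09), and both intervals include 0.

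**Figure D2:**
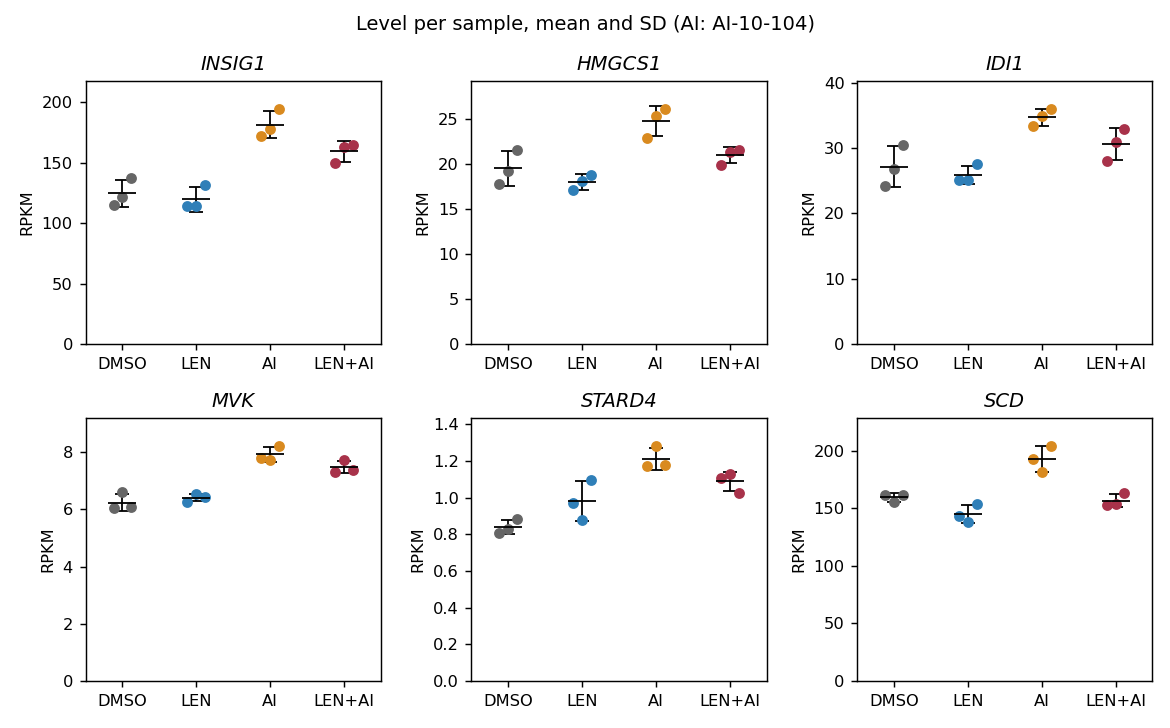
RPKM of INSIG1, HMGCS1, IDI1, MVK, STARD4 and SCD in each sample (coloured points, 3 per condition), with the mean (long black bar) and SD (short caps), on axes that start at 0. AI-10-104 (AI) lies above DMSO in each panel. In the SCD panel the combination lies at the level of DMSO, between 153 and 163 RPKM.

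At the head of the sterol branch, the enzymes that build and phosphorylate mevalonate did not move alike. HMGCS1, which joins acetoacetyl-CoA and acetyl-CoA, was 17.8, 19.2 and 21.6 RPKM in DMSO, 17.1, 18.2 and 18.8 in LEN, 22.9, 25.3 and 26.1 with AI-10-104, and 19.9, 21.4 and 21.6 in the combination. The AI-10-104 samples were the 3 highest of the 12, and the combination overlapped DMSO. HMGCS1 rose with AI-10-104 by 0.34 (standard error 0.07, adjusted p = 0.021, limma), and it stood at 0.11 in the combination against DMSO (adjusted p = 0.40). MVK, mevalonate kinase, was 6.06, 6.60 and 6.07 RPKM in DMSO, 6.27, 6.53 and 6.44 in LEN, 7.82, 7.74 and 8.22 with AI-10-104, and 7.33, 7.72 and 7.39 in the combination. The 6 samples with AI-10-104 were above the 6 without. MVK rose by 0.34 with AI-10-104 (standard error 0.05, adjusted p = 0.0015) and stood at 0.26 in the combination (adjusted p = 0.0058), under the fold threshold. ACAT2, the thiolase that makes acetoacetyl-CoA, was 22.3 to 24.1 RPKM in DMSO and 28.2 to 30.3 with AI-10-104, a difference of 0.31 that passed the adjusted p alone (0.0084). PMVK and MVD, which carry out the next steps after MVK, stood at -0.09 and -0.01 with AI-10-104 (adjusted p = 0.40 and 0.95). PMVK had the highest level of the sterol branch per length, with a mean of 173 RPKM.

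IDI1, the isomerase that supplies dimethylallyl diphosphate, was 24.2, 26.8 and 30.5 RPKM in DMSO, 25.1, 25.2 and 27.6 in LEN, 33.3, 34.9 and 35.9 with AI-10-104, and 28.0, 30.9 and 33 in the combination. The AI-10-104 samples were again the highest, and the combination overlapped DMSO. IDI1 rose by 0.36 with AI-10-104 (standard error 0.08, adjusted p = 0.028, limma). The HMGCS1 call was lost without DMSO replicate 1 or 2 or AI-10-104 replicate 3 (0.28 to 0.42 over the samples left out), that of IDI1 without DMSO replicate 1 or 2 or AI-10-104 replicate 1 or 3 (0.28 to 0.45), and that of MVK without DMSO replicate 1 or AI-10-104 replicate 3 (0.31 to 0.38). With all genes of any value above 0 in the test, HMGCS1, IDI1 and STARD4 lost their calls. HMGCS1, MVK and IDI1 share 2497, 225 and 643 exon bases with ENSG00000261604, MMAB and IDI2-AS1 on the opposite strand, ACAT2 shares 454 with TCP1, and 16 of the 33 genes share some in this way, whereas INSIG1 and SCD share none.

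FDPS, which makes farnesyl diphosphate, and FDFT1, the squalene synthase that commits it to sterol, stood at 0.11 (adjusted p = 0.21) and 0.24 (adjusted p = 0.034) with AI-10-104. GGPS1, which diverts farnesyl diphosphate to the geranylgeranyl group of prenylated proteins, was 7.45, 7.66 and 7.30 RPKM in DMSO, 8.44, 7.14 and 7.37 in LEN, 8.65, 8.27 and 8.37 with AI-10-104, and 8.37, 8.56 and 7.76 in the combination. LEN replicate 1 lay among the samples with AI-10-104. GGPS1 stood at 0.17 with AI-10-104 (adjusted p = 0.13).

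Among the later enzymes, from squalene to cholesterol, no gene was called with AI-10-104 against DMSO. SQLE (0.25), CYP51A1 (0.18), MSMO1 (0.33), SC5D (0.24), DHCR7 (0.15) and LSS (0.12) were on the higher side without passing the adjusted p, which was 0.072 to 0.51. This depended on the fit. With the replicate number added to it, MSMO1 passed both rules (0.33, adjusted p = 0.00069, limma). SQLE (adjusted p = 0.011) and CYP51A1 (0.047) then passed the adjusted p alone, where 2.81% of all genes were higher. The other later enzymes did not pass in that fit. HSD17B7, a ketosteroid reductase of demethylation, was 7.94, 7.55 and 7.32 RPKM in DMSO, 7.55, 7.75 and 6.44 in LEN, 8.49, 8.69 and 9.90 with AI-10-104, and 8.88, 8.88 and 9.73 in the combination. All 6 samples with AI-10-104 were above the 6 without. HSD17B7 was called higher in the combination against LEN, at 0.34 (standard error 0.08, adjusted p = 0.0295, limma), and stood at 0.24 with AI-10-104 against DMSO (adjusted p = 0.097). The call was lost without LEN replicate 1 or 3 or any replicate of the combination (0.26 to 0.39 over the samples left out), and also under both other scalings of the samples (median-ratio and quantile). TM7SF2, a sterol reductase, was 1.87, 2.03 and 2.73 RPKM in DMSO, 2.31, 1.91 and 2.06 in LEN, 2.69, 2.88 and 2.86 with AI-10-104, and 2.73, 2.25 and 2.81 in the combination, from 59 to 136 reads per sample. DMSO replicate 3 lay among the samples with AI-10-104. NSDHL and EBP stood at 0.08 and -0.09 with AI-10-104 (adjusted p = 0.45 and 0.38).

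Averaging over LEN, which sets the 6 samples with AI-10-104 against the 6 without, gave the most precise estimates. By the adjusted p alone 14 of the 31 genes were higher (45.2%) and 0 lower, where 5.35% of all genes were higher. They were 10 of the 18 sterol enzymes (ACAT2, HMGCS1, MVK, IDI1, FDPS, FDFT1, SQLE, TM7SF2, HSD17B7 and DHCR7), 3 of the 6 regulators (INSIG1, SREBF1 and STARD4) and 1 of the 6 fatty acid enzymes tested (SCD). The number was 10 to 15 with each sample left out in turn, where 3.47% to 6.69% of all genes were higher. Under the other settings it was 10 to 21, where 1.7% to 7.13% of all genes were higher. Of the 14, 10 stayed at or under 0.05 under all 20 alternatives tried (other settings, and each sample left out in turn), the exceptions being FDPS, SQLE, TM7SF2 and SREBF1. With the fold threshold, INSIG1 (0.48, adjusted p = 0.00019, limma) and TM7SF2 (0.32, adjusted p = 0.045) were called, against 0.898% of all genes called higher. The TM7SF2 value lay at the threshold and its call held with 3 of the 12 samples left out in turn, at 0.27 to 0.40. It was lost without DMSO replicate 1 or 2, LEN replicate 2 or 3, any AI-10-104 replicate, or replicate 1 or 3 of the combination. For 6 of the 31 tested genes (ACAT2, MVK, FDPS, FDFT1, HSD17B7 and INSIG1) the 6 samples with AI-10-104 all lay above the 6 without. This was so for 2.14% of the 11241 genes, and for 0 of the 31 genes they all lay below. The median over the 18 sterol enzymes was 0.20, with 17 above 0, and the median of all genes tested was 0.01.

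In the fatty acid branch all 6 tested enzymes stood above 0 with AI-10-104, and 1 passed. SCD, the desaturase that makes oleate, was 161, 155 and 162 RPKM in DMSO, 143, 138 and 153 in LEN, 193, 182 and 204 with AI-10-104, and 153, 154 and 163 in the combination. The AI-10-104 samples lay above all others and the combination overlapped DMSO and LEN. SCD stood at 0.27 with AI-10-104 against DMSO (standard error 0.05, adjusted p = 0.010, limma), under the fold threshold, and at -0.03 in the combination (adjusted p = 0.80). FASN, fatty acid synthase, and ACLY, which supplies cytosolic acetyl-CoA, stood at 0.05 (95% interval -0.08 to 0.17) and 0.02 (-0.04 to 0.08) with AI-10-104. ACSS2, which makes acetyl-CoA from acetate, had a large but uncertain difference of 0.40 (95% interval 0.08 to 0.72, adjusted p = 0.14) from 50 to 95 reads per sample. The elongase ELOVL6 was 13.2 to 13.7 RPKM in DMSO, 15.1 to 17.3 in LEN, 13.5 to 15.1 with AI-10-104 and 15.5 to 16.4 in the combination. It was the only gene of the list that passed the adjusted p with LEN, as described below. FADS1, a desaturase of polyunsaturated fatty acids, stood at 0.15 with AI-10-104 (adjusted p = 0.28), and it shares 490 exon bases with FADS2 on the opposite strand. With all genes of any value above 0 in the test, ACACA stood at 0.15 and FADS2 at 0.17 with AI-10-104 (adjusted p = 0.40 and 0.84).

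Set side by side, the medians of the sterol and fatty acid branches were 0.24 and 0.13 with AI-10-104 against DMSO, 0.17 and 0.07 in the combination against LEN, and 0.12 and 0.14 in the combination against DMSO. The mean of the 18 sterol enzymes, relative to DMSO, was 0.19 ± 0.06 (SD, n = 3) with AI-10-104 and 0.14 ± 0.06 with both drugs, while the 6 fatty acid enzymes had means of 0.17 ± 0.04 and 0.16 ± 0.04. The fatty acid mean includes ACSS2, the highest of the 6 at 0.40 with AI-10-104 and 0.43 with both drugs, from 50 to 95 reads per sample. A mean without ACSS2 was not computed. The sterol mean minus the fatty acid mean was -0.05 to 0.09 in the DMSO samples, -0.15 to -0.06 with LEN, -0.07 to 0.09 with AI-10-104 and -0.08 to 0.03 in the combination. AI-10-104 overlapped DMSO in this difference, and the combination overlapped LEN. The LEN samples lay below the DMSO samples in it. No p is given for these scores.

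**Figure D3:**
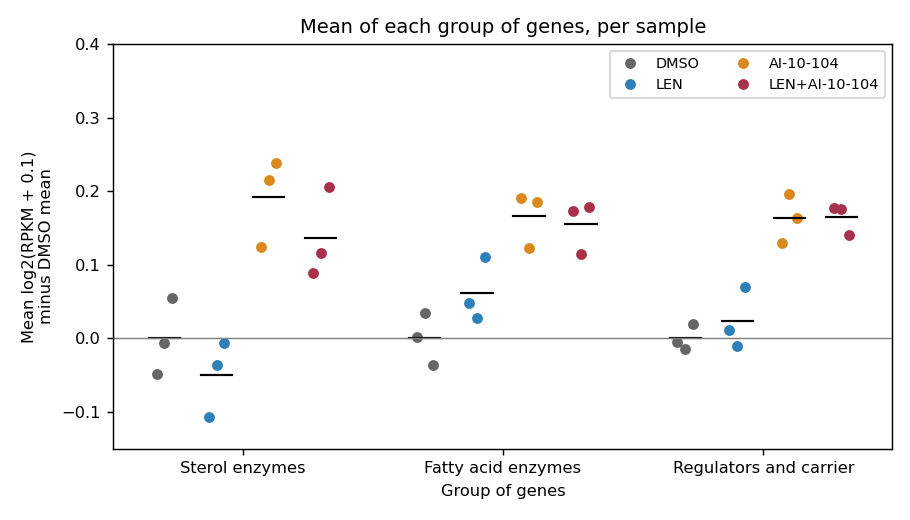
Mean over the 18 sterol enzymes, the 6 tested fatty acid enzymes and the 6 regulators and carriers in each sample (points, 3 per condition, mean as a black bar), as log2(RPKM + 0.1) minus the DMSO mean. The AI-10-104 and combination samples lie above the DMSO and LEN samples in all 3 groups of genes, with sterol means of 0.12 to 0.24 and 0.09 to 0.21. For the fatty acid enzymes, which include the low ACSS2, the lowest combination sample is at 0.1144 and the highest LEN sample at 0.1101.

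When LEN was added to AI-10-104, SCD was lower by the adjusted p alone under all 21 alternatives, and how many others passed depended on the fit. In the combination against AI-10-104, 0 of the 31 genes were called in either direction by limma and 0 by voom. Of all genes, limma called 3.16% higher and 0.471% lower. An unadjusted p under 0.05 (limma) was found for 11 of the 31 genes and for 3729 of the 11241 genes. By the adjusted p alone 2 genes were lower (6.45%), SCD and HMGCS1, and 0 higher. This share is close to the 5.84% of all genes that were lower, while 9.13% of all genes were higher. By voom 5 genes were lower and 1 higher by the adjusted p alone, where 6.67% and 10.9% of all genes were. The number in either direction was 1 to 5 with a sample left out, where 2.43% to 14.8% of all genes were higher and 1.09% to 9.83% lower. It was 5 without AI-10-104 replicate 2 (3 higher and 2 lower). It was 1 without DMSO replicate 2, LEN replicate 2 or 3, AI-10-104 replicate 1 or 3 or any replicate of the combination. It was also 1, a lower gene, with genes of any value above 0 or only these conditions fitted, where 1.63% and 2.17% of all genes were lower. HMGCS1 passed under 10 of the 21 alternatives. SCD stood 0.30 lower in the combination, with a log2 fold change of -0.30 (95% interval -0.41 to -0.19, adjusted p = 0.0051, limma), and its adjusted p was at most 0.028 under all 21 alternatives tried, each sample left out in turn among them. HMGCS1 stood at -0.24 (95% interval -0.39 to -0.08, adjusted p = 0.044), with an adjusted p of up to 0.15 over the alternatives. Of the 31 genes 17 stood below 0 in this comparison and 14 above. Among those below 0 that did not pass were INSIG1 (-0.19, adjusted p = 0.11), SQLE (-0.20, 0.081), CYP51A1 (-0.18, 0.090), IDI1 (-0.18, 0.14), MVK (-0.08, 0.23), DHCR7 (-0.08, 0.21) and STARD4 (-0.14, 0.35). Among those above 0 were MVD (0.20), EBP (0.16), ELOVL6 (0.14), PMVK and SREBF1 (0.13 each), with adjusted p of 0.075 to 0.14. XBP1, a plasma cell factor of the unfolded protein response, was also called lower in the combination than with AI-10-104 (-0.35, adjusted p = 0.00061), and its part in the values of SCD and HMGCS1 was not tested.

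**Figure D4:**
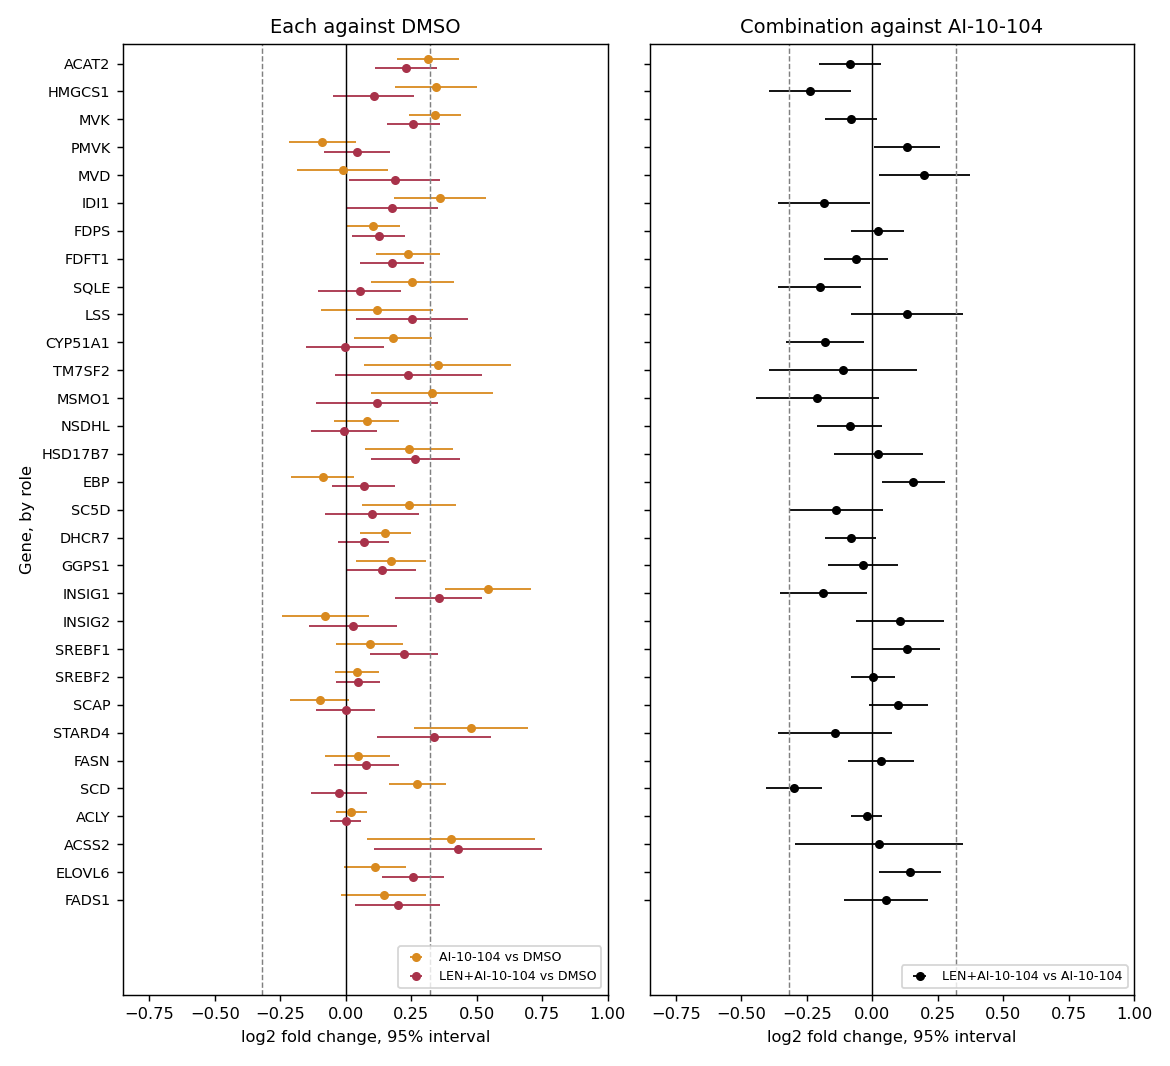
Log2 fold change with its 95% interval (points and lines) of the 31 tested genes, for AI-10-104 and the combination each against the same 3 DMSO samples (left) and for the combination against AI-10-104 (right). Dashed lines mark the fold threshold of 0.32. On the right 6 intervals lie below 0 (SCD, HMGCS1, SQLE, CYP51A1, INSIG1 and IDI1), 5 lie above 0 (PMVK, MVD, EBP, SREBF1 and ELOVL6) and 20 include 0. Intervals without 0 are those with an unadjusted p under 0.05 (limma), which 3729 of the 11241 genes had in this comparison.

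Against DMSO, the combination had 5 of the 31 genes higher by the adjusted p alone (16.1%), INSIG1, MVK, ACAT2, SREBF1 and ELOVL6, where 5.64% of all genes were higher. This number was 1 without DMSO replicate 2 and 3 without DMSO replicate 3, where 2.5% and 3.32% of all genes were higher. It was 3, 2 and 3 without replicates 1, 2 and 3 of the combination, where 2.75%, 3.18% and 3.99% were. It was 3 with genes of any value above 0 (1.7% of all genes) and 8 by voom (6.77%). MVK passed under all 21 alternatives and SREBF1 under 11 of them, median-ratio rescaling not among these. Against LEN, which shares no sample with the comparison of AI-10-104 with DMSO, 2 genes were called higher (INSIG1 and HSD17B7), where 0.872% of all genes were, and 0 lower. By the adjusted p alone 6 were higher (19.4%, with ACAT2, MVK, DHCR7 and SREBF1), where 2.48% of all genes were. This number was 0 without LEN replicate 1 and 1 without LEN replicate 3, where 0.872% and 1.01% of all genes were higher. It was 2, 1 and 3 without replicates 1, 2 and 3 of the combination, where 0.818%, 1.11% and 1.55% were. It was 2 with genes of any value above 0 (0.634% of all genes) and 11 by voom (3.18%). No gene of the list passed under all 21 alternatives. The sterol enzymes stood above 0 in 18 of 18 cases in the combination against LEN and in 15 of 18 with AI-10-104 against DMSO. The median of all genes tested was itself above 0, at 0.02 (quartiles -0.05 and 0.11) and 0.01 (quartiles -0.07 and 0.08). The share of all genes above 0 was not computed. Values for the combination against LEN and for AI-10-104 against DMSO were 0.41 and 0.54 for INSIG1, 0.22 and 0.34 for HMGCS1, 0.22 and 0.34 for MVK, 0.24 and 0.36 for IDI1, 0.14 and 0.48 for STARD4, and 0.11 and 0.27 for SCD. These differences between the 2 effects are the interaction of the drugs, which passed in 0 of the 31 genes and 0% of the 11241 genes by limma, with 3 of the 31 and 1621 of all genes at an unadjusted p under 0.05. By voom, 0 of the 31 genes and 3 of all genes passed. The 0% of all genes depended on 1 sample. Without AI-10-104 replicate 2, the interaction passed above 0 in 3.69% and below 0 in 1.11% of all genes by limma. It still passed in 0 of the 31 genes. The 3 of the list with an unadjusted p under 0.05 over all samples (limma) were STARD4 (-0.34, 95% interval -0.65 to -0.03, adjusted p = 0.33), SCD (-0.16, -0.31 to -0.01, adjusted p = 0.33) and PMVK (0.19, 0.01 to 0.37, adjusted p = 0.33).

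LEN alone changed little in these genes. Against DMSO 0 of the 31 genes were called by limma and 0 by voom, where limma called 0.587% of all genes higher. An unadjusted p under 0.05 (limma) was found for 5 of the 31 genes and for 1206 of the 11241 genes. ELOVL6 passed the adjusted p alone, at 0.27 (95% interval 0.15 to 0.39, adjusted p = 0.038), where 0.979% of all genes were higher, and its adjusted p was at most 0.05 in 9 of 21 alternatives. Of the 31 genes 10 stood above 0 with LEN and 21 below. FADS1 was among those above 0 that did not pass (0.24, adjusted p = 0.19). Among those below 0 that did not pass were SCD (-0.14, adjusted p = 0.29), DHCR7 (-0.14, adjusted p = 0.23) and FASN (-0.12, adjusted p = 0.52). For the sterol branch the median with LEN was -0.06.

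The neighbouring pathways were examined through 5 lists. With AI-10-104 averaged over LEN, the fold threshold called 0 of 12 genes that process or partner SREBP, 0 of 10 tested genes of cholesterol transport and LXR response, 0 of 11 of isoprenoid use, 1 of 23 of fatty acid elongation, activation and esterification, and 0 of 7 of fatty acid oxidation. The same rule called 1 of the 18 sterol enzymes and 0 of the 6 fatty acid enzymes, and 0.898% of all genes higher and 0.979% lower. On the adjusted p alone 0 of 12, 1 of 10, 0 of 11, 2 of 23 and 0 of 7 were higher and 1 of 23 was lower, beside the 10 of 18 and 1 of 6, and 5.35% of all genes higher. The medians of the 5 lists were 0.01, -0.02, -0.01, 0.02 and 0.01, beside 0.20 for the sterol branch and 0.01 for all genes. The gene called was LPIN1, lipin-1, the phosphatidate phosphatase that makes diacylglycerol and a known SREBP target, and it moved the other way. LPIN1 was 23.3 to 24.1 RPKM in DMSO, 24.5 to 25.2 in LEN, 18.5 to 20.4 with AI-10-104 and 18.5 to 19.9 in the combination, so the samples with AI-10-104 lay below those without. It fell by 0.32 on the log2 scale over all (adjusted p = 3.4e-05, limma), where 0.979% of all genes were called lower, and by 0.36 in the combination against LEN (adjusted p = 0.00046), where 0.81% were. The averaged value lay at the threshold, and the call was lost without DMSO replicate 1, LEN replicate 1, AI-10-104 replicate 2 or replicate 3 of the combination (0.31 to 0.34 in size), with the adjusted p at most 0.00022 throughout. Within the same list DGAT2, which completes triglyceride, was named after its values were seen. It was 19.7 to 23.8 RPKM in DMSO, 21.0 to 22.3 in LEN, 25.4 to 27.8 with AI-10-104 and 25.8 to 27.6 in the combination, and stood at 0.30 averaged over LEN (adjusted p = 0.0017), under the fold threshold.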

How the data were processed

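Poly(A) RNA of OPM-1 cells was sequenced in 3 samples per condition, 12 in all. The authors deposited RPKM values with gene lengths from featureCounts; their processing notes name STAR, Cuffnorm and GRCh38. Dividing by the smallest step gave whole reads for 100% of values (tolerance 0.05). limma 3.58.1 (R 4.3.3) was fitted to log2(RPKM + 0.1) of genes whose mean over the samples reached 0.5 RPKM, with 1 mean per condition and a variance trend, and p-values were adjusted by Benjamini-Hochberg. All listed genes are named; of neighbouring lists, those called; values per sample are given for called members, SCD and GGPS1. Members and lists were chosen with earlier results of these data known. Alternatives were 2 pseudocounts, 2 filters, 2 rescalings, fits to the conditions compared, the replicate block, no fold threshold, voom on reads and leaving out each sample. On simulated data for AI-10-104 against DMSO, 30 of 59 genes changed 1.3-fold were called, 58 of 69 at 1.6-fold, and 3 of 11050 unchanged genes. The simulation gave every gene the same dispersion and no sample a deviation of its own, so these numbers hold for that setting and are not rates for the real samples. Read numbers cover counting error only. Gene positions are from GENCODE 44. Tables and figures used Python 3.11.15, pandas 2.3.3 and matplotlib 3.10.9.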

Additional observations from a re-analysis of the deposited data

How the results depend on the processing

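Most changes lay near the fold threshold of 0.32, so counts of called genes moved with the settings. Of 908 alternative values of the 42 single-gene results that passed the adjusted p, 95 changed call and none changed sign. Without that threshold all uncalled results change call, and their losses of the adjusted p are not counted. Low read numbers limit STARD4, ACSS2, TM7SF2, ACACA and FADS2. Without a fold threshold 1 gene was called with LEN, 8 with AI-10-104, 5 in the combination against DMSO, 6 against LEN, 2 against AI-10-104 and 14 for AI-10-104 averaged over LEN. These are by the adjusted p alone, with shares of all genes above. With AI-10-104 against DMSO 5 became 3 with a pseudocount of 1, and 2 with any value above 0 or with only the conditions compared. Of all genes, the 77 called higher became 60, 57 (of 24115 tested) and 44 in these settings. In the combination against LEN 2 became 1 with a pseudocount of 1, any value above 0, either rescaling or only the conditions compared. Of all genes, the 98 called higher became 57, 62, 83 (median-ratio), 64 (quantile) and 65. For AI-10-104 averaged over LEN 2 became 1 with a pseudocount of 1, any value above 0 or either rescaling, and 4 by voom. Of all genes, the 101 called higher became 49, 96, 94 (median-ratio), 80 (quantile) and 123 (voom). In the combination against DMSO voom called 2 genes of the list, and 309 of all genes higher. Quantile normalization called 1 (SCD) in the combination against AI-10-104, where it called 250 of all genes higher and 90 lower. Beyond the genes or samples a setting itself changes, the cause of these moves was not tested. The averaged and interaction comparisons need all 4 conditions and were not fitted to fewer.

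The fatty acid median rests on 6 genes, 8 with any value above 0. A mean of at least 1 RPKM gave -0.020 with LEN, 0.078 in the combination against DMSO and 0.020 against LEN, and any value above 0 gave -0.036 with LEN, 0.11 in the combination against LEN and 0.13 averaged. Quantile normalization gave -0.024 in the combination against AI-10-104 and -0.16 for the interaction.

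Leaving out each sample in turn, genes of the list called ranged from 1 to 7 with AI-10-104. The number was 1 without DMSO replicate 1 or AI-10-104 replicate 3, where 52 and 46 of all 11241 genes were called higher. It was 3 without DMSO replicate 2 or AI-10-104 replicate 1, where 59 and 48 were. Over all samples left out, 46 to 144 of all genes were called higher with AI-10-104. Genes of the list called ranged from 0 to 1 in the combination against DMSO, 0 to 2 against LEN and 0 to 1 against AI-10-104. The last number was 1 without AI-10-104 replicate 2 or replicate 3 of the combination. Averaged over LEN they ranged from 1 to 4 (4 without DMSO replicate 3). Of all genes, 182 to 269 were called higher in the combination against DMSO, 46 to 121 against LEN and 81 to 114 averaged over LEN. Against AI-10-104, 162 to 661 were called higher and 21 to 103 lower. The sterol median was 0.18 to 0.25 with AI-10-104 and 0.089 to 0.19 in the combination against DMSO. The fatty acid median was 0.020 to 0.10 with LEN and -0.19 to -0.052 for the interaction.

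The replicate numbers do not pair the samples by the labels or methods: deviations from the condition mean had a mean r of 0.0522 between samples of the same number (18 pairs, -0.0272 to 0.155) and -0.0261 between others, though 10 of 12 samples were most like one of their own number. With the replicate block, 0, 6, 1, 2, 0 and 2 genes were called with LEN, AI-10-104, the combination against DMSO, LEN and AI-10-104, and averaged over LEN. In the same order, 73, 89, 288, 123, 408 and 109 of all 11241 genes were called higher. Without the block these were 66, 77, 259, 98, 355 and 101. By the adjusted p alone the block gave 3 higher and 7 lower genes in the combination against AI-10-104, where 12.3% and 7.86% of all genes were, and 0 and 2 genes passed without it. Against LEN it gave 10 genes, where 6 passed without it, and 3.25% of all genes were higher.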
